A study of Homo sapiens with 6 samples.

Results

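The replication-dependent core histone genes were examined in A673 Ewing sarcoma cells made to express the propeptide of lysyl oxidase (LOX-PP). Members were taken by a rule on names: gene probes whose RefSeq accession belonged to a core histone with a current symbol of H2AC, H2BC, H3C or H4C and a number, with the linker histones left out. The RefSeq gene table listed 64 such genes, of which 60 had a probe on the array, among 20503 named genes in all. They comprised 16 H2A, 18 H2B, 12 H3 and 14 H4 genes, read by 72 probes. No probe was named for H4C14, H3C14, H2AC18 and H2BC12L.

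A nucleosome wraps DNA around an octamer of H2A, H2B, H3 and H4. The bulk of these proteins is made during S phase from many small intronless genes that lie together in clusters, the largest of them on chromosome 6. Their mRNAs normally end in a stem-loop bound by SLBP rather than in a poly(A) tail, and they are removed when DNA synthesis stops. Some members, among them H2BC4, H2BC5, H2BC12, H2BC21 and H2AC6, are known to give polyadenylated transcripts as well. The labels name Agilent's one-colour labelling, which primes with oligo(dT), and which kind of transcript gave the signal of each probe was not tested. Several members encode the same protein and have very similar coding sequences, so a probe may also read RNA of other members, and the files hold no probe sequences with which to see this.

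Gene expression was measured on 6 Agilent one-colour arrays of total RNA. A673 is an Ewing sarcoma line carrying the EWS/FLI1 fusion, and all cells used were A673/TR, which express the tetracycline repressor. The 3 A673/TR/empty arrays held cells infected with the empty lentiviral vector, and the 3 A673/TR/LOX-PP arrays held cells with a vector that expresses the tagged propeptide when doxycycline is given. The LOX-PP cells had doxycycline for 72 h. The treatment field carries the same text for the control arrays, whose source field names no drug. Where the controls had none, the drug and the propeptide cannot be told apart. Stable clones were selected in both, and since the sources used here do not say which clones were hybridised, construct and clone cannot be told apart either. The replicates were separate experiments according to the methods.

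All values below are normalized log2 signals, that is, the log2 of the background-corrected signal minus the 75th percentile of the same array. The median of all 32609 tested probes itself moved by 0.13 between the groups, and by -0.03 under quantile normalization. Changes and their intervals are therefore given as LOX-PP minus empty relative to that median. The p-values and calls are of the difference from 0 before that median is taken off. For H2BC14 the change of 0.86 thus carries the p-value of a difference of 0.99. A small change can have the opposite sign to the tested difference, as in H3C3 (-0.067 against 0.059). Between 56.9% and 74.8% of the spots of an array were well above background, and 0 were saturated. Before scaling, the 75th percentile of the signal was 2847 and 3331 on LOX-PP replicates 1 and 3, against 6204 to 7641 on the other arrays. Whether this bears on the histone values was not tested. Of the 72 core histone probes, between 68 and 71 per array were well above background. Replicate 1 of the LOX-PP arrays was hybridised on another slide than the other 5 arrays and stood apart for the histones, as described below. The single probe for LOX gave 0.13 ± 0.22 (SD, n = 3) in empty cells and -0.70 ± 0.58 (SD, n = 3) in LOX-PP cells, and changed by -0.95 (adjusted p = 0.22). Where this probe lies relative to the propeptide is not given in the files, so it did not check the labels, on which every direction here rests. All 7 markers of Ewing sarcoma cells were well above background on all 6 arrays, and of them only CCK, a peptide hormone gene, passed the test (-2.67, adjusted p = 0.010). Of 6 markers of leukocytes, epithelial and endothelial cells, 5 were tested and none passed, and PECAM1 gave 1.23 on its brightest probe (adjusted p = 0.095). The 2 leukocyte markers, 1 epithelial and 1 endothelial marker were also well above background on all 6 arrays, whereas CDH1 was on none. Being well above background thus did not by itself set the Ewing sarcoma markers apart.

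Of the 70 core histone probes tested, 5 were higher and 1 was lower in LOX-PP cells, and all of these read H2B genes. Over the whole array 3.31% of tested probes were called higher and 2.36% lower. None of the 18 H2A, 13 H3 and 18 H4 probes passed the threshold, an adjusted p under 0.05 in limma with Benjamini-Hochberg adjustment. At an unadjusted p under 0.05 there were 10 higher probes, 2 of H2A and 8 of H2B, and 2 lower probes, both of H2B, against 12.3% higher and 9.02% lower over the array. In these bulk samples a smaller share of cells that express a gene and less RNA per cell cannot be told apart. With 1 probe per gene, the brightest, the median change over 59 genes was 0.089, with 36 genes above the median of all probes and 23 below it, or 17 below under quantile normalization. The class medians were 0.097 for H2A, 0.41 for H2B, -0.15 for H3 and 0.095 for H4, and under quantile normalization 0.21 over all members, 0.23 for H2A, 0.59 for H2B, -0.045 for H3 and 0.20 for H4. Of the 17 H2B genes 13 lay above the all-probe median, and of the 12 H3 genes 10 lay below it, or 7 under quantile normalization.

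**Figure D1:**
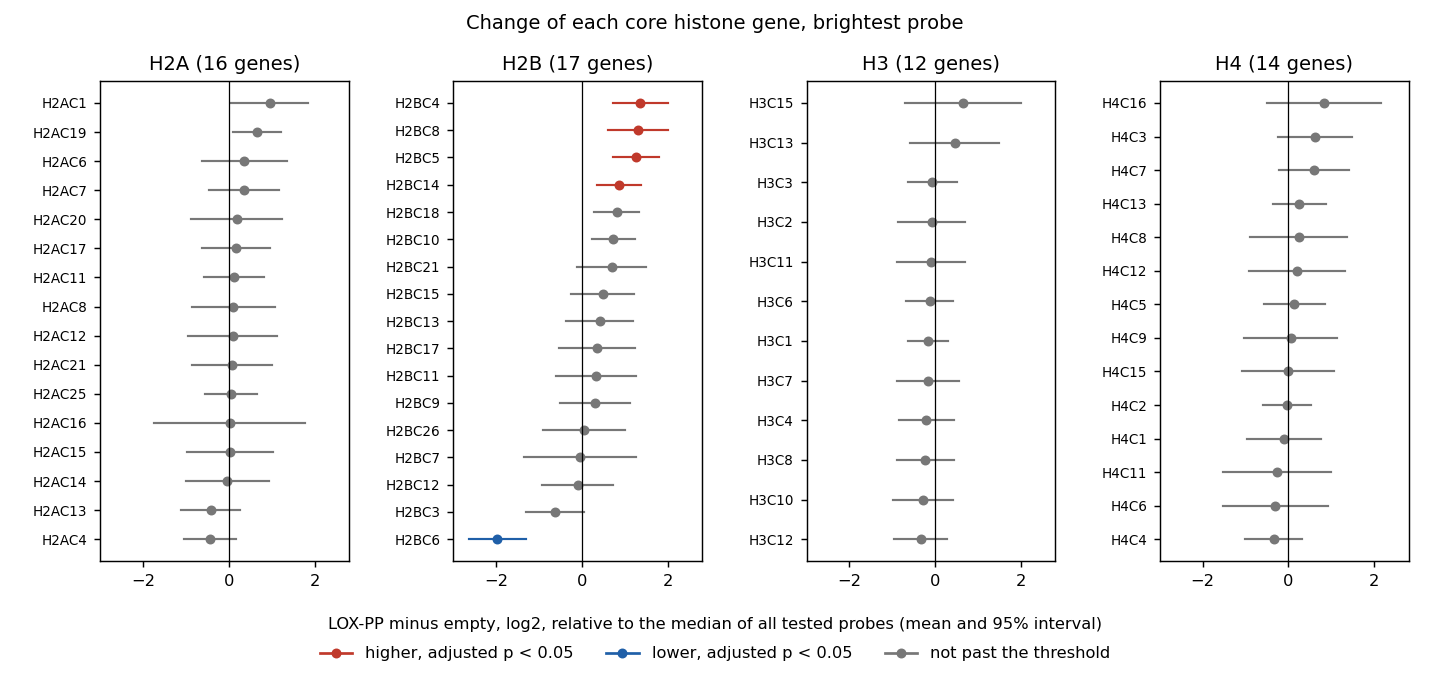
Each point is the change of 1 gene on its brightest probe, as LOX-PP minus empty in log2 units relative to the median of all tested probes, with its 95% interval from 3 arrays a group. The coloured points, which are all in the H2B panel, passed the test, and H2BC6 lies alone at -1.97.

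The class medians hid a large difference between the LOX-PP arrays. Measured from the mean of the empty arrays, the median over 59 genes was 1.02 on LOX-PP replicate 1, -0.37 on replicate 2 and 0.27 on replicate 3, whereas the empty arrays lay between -0.098 and 0.16. LOX-PP replicate 1 was the highest of the 6 arrays for 45 of 59 genes, and replicate 2 was the lowest for 37. The median SD of a gene was 0.17 on the empty arrays and 0.61 on the LOX-PP arrays. Of the 70 probes, 30 were in the brightest 10% of all tested probes, and that 10% as a whole gave 0.17, -0.08 and 0.18 on LOX-PP replicates 1, 2 and 3.

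The spread was uneven between the classes. H4 genes gave medians of 1.07, -0.61 and 0.34 on LOX-PP replicates 1, 2 and 3, and H2A genes gave 1.00, -0.44 and 0.26. For H3 genes the medians were 0.20, -0.58 and 0.21, so replicates 1 and 3 were alike there. The H2B medians were 1.17, 0.071 and 0.33, of which the value on replicate 2 lay among the empty arrays and under the median of all tested probes on that array (0.16). Without LOX-PP replicate 1 the median turned to -0.20 over all members, -0.27 for H2A and -0.32 for H4, was -0.33 for H3, and came to 0.033 for H2B. In that fit 41 of the 59 genes lay below the all-probe median. Slide and array cannot be told apart here, since slide 2 held this array alone.

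**Figure D2:**
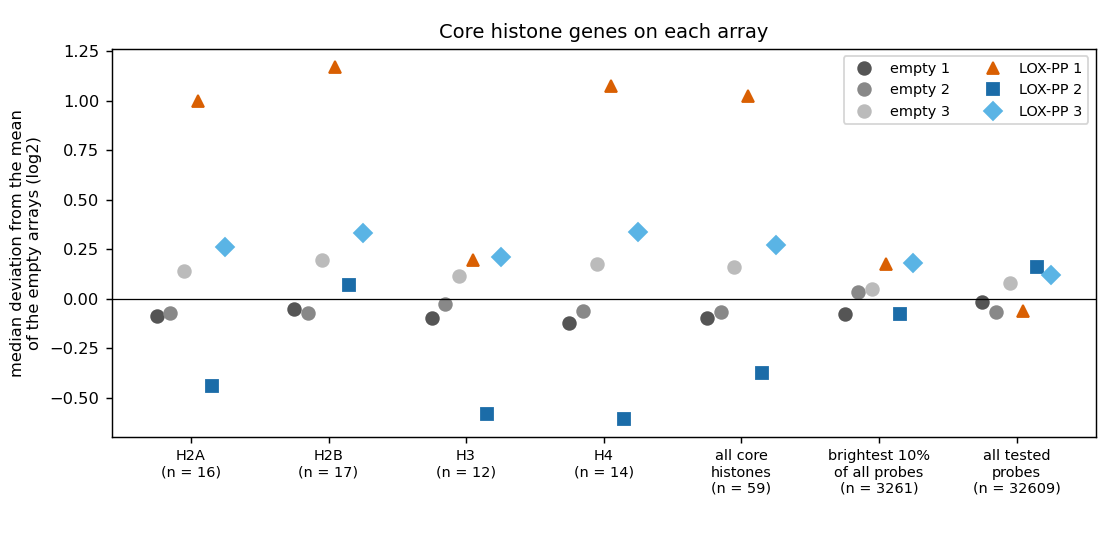
Points give, for each of the 6 arrays, the median over genes of the deviation from the mean of the empty arrays in log2 units, for the 4 classes, all core histones, the brightest 10% of probes and all tested probes. LOX-PP replicate 1 lies near 1 for H2A, H2B and H4 but at 0.20 for H3, and replicate 2 lies below the empty arrays in H2A, H3 and H4.

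The 5 higher probes read H2BC4, H2BC8, H2BC5, H2BC12 and H2BC14, each a gene for H2B, the partner of H2A in the nucleosome. H2BC4 gave -0.17, 0.06 and 0.50 on empty replicates 1, 2 and 3, and 1.81, 1.29 and 1.76 on the LOX-PP replicates. All 3 LOX-PP arrays lay well above the empty arrays, and the array on slide 2 did not stand out. The change was 1.36 (95% interval 0.72 to 2.01, adjusted p = 0.028), which is 2.57-fold.

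H2BC8 gave -0.06, 0.16 and 0.43 in empty cells and 2.06, 1.15 and 1.64 in LOX-PP cells. The groups did not overlap, with a change of 1.31 (95% interval 0.61 to 2.02, adjusted p = 0.039). H2BC5 gave 1.33, 1.34 and 1.68 against 3.01, 2.59 and 2.90. Its LOX-PP arrays lay close together and above every empty array, with a change of 1.26 (95% interval 0.72 to 1.80, adjusted p = 0.020). H2BC14 gave 2.29, 2.51 and 2.62 against 3.64, 3.32 and 3.42. Here too the groups were apart, with a smaller change of 0.86 (95% interval 0.35 to 1.37, adjusted p = 0.047).

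H2BC12 was read by 2 probes that differed. One of them gave 1.94, 1.98 and 2.24 in empty cells and 3.36, 2.94 and 3.20 in LOX-PP cells. Its groups were apart, with a change of 0.99 (95% interval 0.46 to 1.51, adjusted p = 0.036). The brighter probe gave 4.22, 4.18 and 3.51 against 4.13, 4.45 and 3.40. There the groups overlapped, with replicate 3 of each group lowest and a change of -0.098 (95% interval -0.92 to 0.73, adjusted p = 0.98). Both probes carry the same accession, and RefSeq lists 2 transcripts of this gene, as it does for H2BC4 and H2BC5. Counted by the brightest probe of each gene, 4 H2B genes were higher.

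H2BC6 went the other way. It gave -1.06, -1.34 and -1.42 in empty cells and -3.20, -2.66 and -3.52 in LOX-PP cells. The probe was well above background on all 6 arrays, and the groups lay far apart. H2BC6 fell by 1.97 (95% interval -2.64 to -1.31, adjusted p = 0.015), a 3.93-fold difference and the largest of the core histones tested. Within slide 1, that is without LOX-PP replicate 1, its change was again -1.97 (adjusted p = 0.033).

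H2BC18 was read by 4 probes that carry 2 accessions, and its probes moved apart without any passing the test. A probe of the first accession gave 2.96, 3.13 and 3.34 in empty cells and 4.28, 3.88 and 4.06 in LOX-PP cells. All LOX-PP arrays were above the empty arrays (0.81, adjusted p = 0.064). The other probe of that accession gave -0.17 (adjusted p = 0.94). The tested probe of the second accession gave -0.80, -0.63 and -0.78 in empty cells and -2.28, -1.74 and -1.51 in LOX-PP cells, all of them below the empty arrays (-1.23, adjusted p = 0.058). The remaining probe was well above background on 2 arrays and was not tested.

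Among the other H2B genes, H2BC10, named like H2BC18 after its values were seen, gave 2.50, 2.65 and 2.84 in empty cells and 3.64, 3.35 and 3.58 in LOX-PP cells. The groups were apart, but its change of 0.73 did not pass (adjusted p = 0.070). The 3 H2B genes with the brightest probes were H2BC13 (0.41, adjusted p = 0.40), H2BC17 (0.35, adjusted p = 0.51) and H2BC9 (0.30, adjusted p = 0.53). In each of them LOX-PP replicate 1 lay far above the other 5 arrays. H2BC1 was well above background on none of the arrays and was not tested. Counting probes rather than calls, the 3 LOX-PP arrays were all above the 3 empty arrays for 10 core histone probes, 2 of H2A and 8 of H2B, and all below for 2, both of H2B. Over all tested probes these shares were 16.1% and 13.4%.

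**Figure D3:**
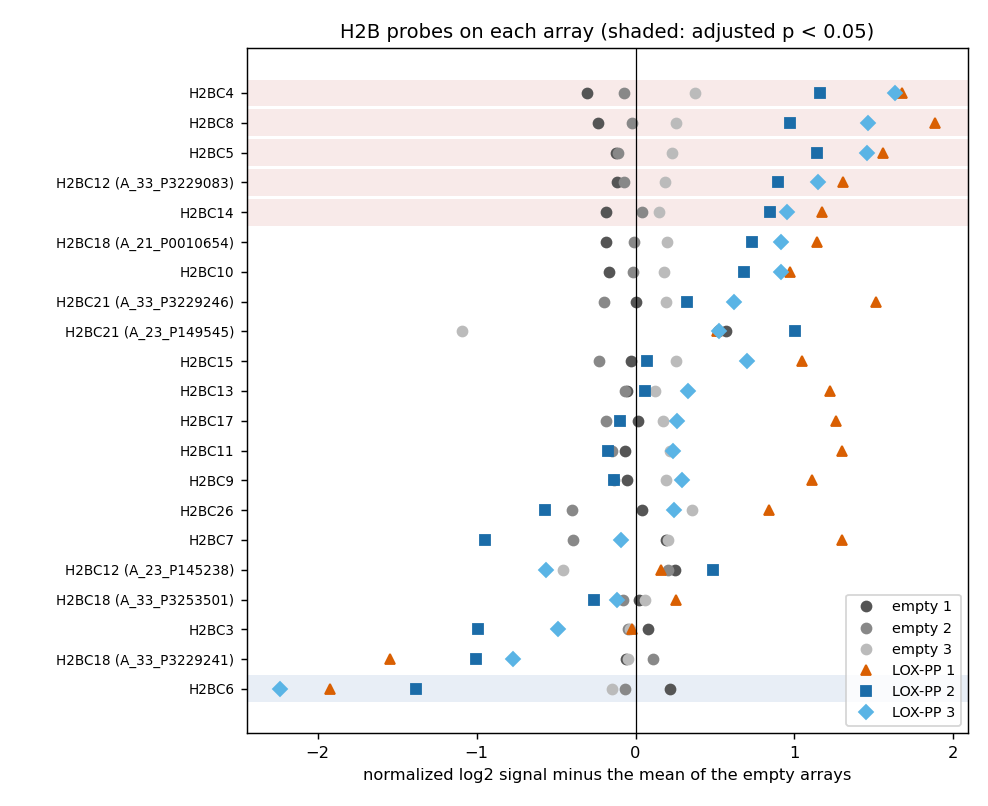
Each row is 1 tested H2B probe, and each point its normalized log2 signal on 1 array minus the mean of the empty arrays, with shading for the 6 probes past the threshold. On the 5 shaded probes at the top all LOX-PP arrays lie to the right of the empty arrays, whereas in the middle rows LOX-PP replicate 1 lies alone to the right.

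The H2B calls depended on the arrays used. Under quantile normalization 7 probes were higher and 2 lower, with H2BC10 and the H2BC18 probes of both accessions added, against 2.79% higher and 3.02% lower over the array. Without LOX-PP replicate 1, H2BC4 (adjusted p = 0.049), H2BC5 (adjusted p = 0.034) and H2BC12 (adjusted p = 0.049) were still higher and H2BC6 was lower, with 4.01% and 2.33% over the array, while H2BC8 gave an adjusted p of 0.053 and H2BC14 one of 0.059. Leaving out LOX-PP replicate 2 kept 3 higher probes and H2BC6, and leaving out LOX-PP replicate 3 kept H2BC6 only. Without empty replicate 3 there were 2 higher probes, H2BC4 and H2BC5, and H2BC6. Without empty replicate 1 or empty replicate 2 there were 0 calls in either direction.

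The promoters of the 6 called genes are shown so that the H2B genes that were higher can be set beside the one that was lower. Each run gives 250 bases up to the base before the transcription start, 5′ to 3′ on the gene's strand, from RefSeq on GRCh38.p14. Capitals mark matches, on either strand, to the TATA box motif TATAAA, the CCAAT box and the octamer ATTTGCAT that is known from H2B promoters. H2BC4 is at chr6:26123927-26124176 (minus strand), H2BC8 at chr6:26216689-26216938 (minus strand), H2BC5 at chr6:26157871-26158120 (plus strand), H2BC12 at chr6:27146859-27147108 (minus strand), H2BC14 at chr6:27814772-27815021 (plus strand) and H2BC6 at chr6:26183511-26183760 (plus strand). The first 5 were higher and the last was lower.
H2BC4: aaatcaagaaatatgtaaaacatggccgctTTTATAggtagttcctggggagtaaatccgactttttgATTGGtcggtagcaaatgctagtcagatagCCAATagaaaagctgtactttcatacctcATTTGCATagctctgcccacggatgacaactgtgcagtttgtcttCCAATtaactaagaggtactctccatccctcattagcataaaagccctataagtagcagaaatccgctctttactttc
H2BC8: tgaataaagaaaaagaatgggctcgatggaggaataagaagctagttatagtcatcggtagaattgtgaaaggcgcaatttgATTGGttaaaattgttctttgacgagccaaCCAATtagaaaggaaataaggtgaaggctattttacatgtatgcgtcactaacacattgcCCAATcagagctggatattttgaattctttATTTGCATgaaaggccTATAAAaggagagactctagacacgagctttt
H2BC5: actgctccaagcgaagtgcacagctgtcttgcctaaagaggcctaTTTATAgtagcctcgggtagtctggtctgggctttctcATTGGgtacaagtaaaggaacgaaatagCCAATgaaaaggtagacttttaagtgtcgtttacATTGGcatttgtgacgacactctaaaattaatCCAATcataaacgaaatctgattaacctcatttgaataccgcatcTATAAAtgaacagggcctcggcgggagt
H2BC12: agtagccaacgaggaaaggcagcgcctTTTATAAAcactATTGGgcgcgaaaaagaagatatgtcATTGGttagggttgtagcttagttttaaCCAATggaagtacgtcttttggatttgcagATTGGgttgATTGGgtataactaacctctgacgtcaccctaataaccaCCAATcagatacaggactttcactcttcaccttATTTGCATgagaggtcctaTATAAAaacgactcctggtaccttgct
H2BC14: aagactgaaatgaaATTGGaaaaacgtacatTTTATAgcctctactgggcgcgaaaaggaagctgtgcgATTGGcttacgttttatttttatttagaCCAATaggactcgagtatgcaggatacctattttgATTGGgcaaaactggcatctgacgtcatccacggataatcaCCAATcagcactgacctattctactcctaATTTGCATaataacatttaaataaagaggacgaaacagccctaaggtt
H2BC6: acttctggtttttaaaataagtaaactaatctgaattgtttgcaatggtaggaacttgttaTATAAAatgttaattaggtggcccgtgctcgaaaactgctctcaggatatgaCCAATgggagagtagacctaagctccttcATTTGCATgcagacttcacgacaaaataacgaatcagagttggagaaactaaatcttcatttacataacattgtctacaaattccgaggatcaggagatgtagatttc

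Promoters were found in RefSeq for 55 of the 60 members, and not for H2AC12, H3C11, H3C12, H4C1 and H4C3. The octamer ATTTGCAT was present in 77.8% of 18 H2B promoters and 73.3% of 15 H2A promoters, in 10% of 10 H3 promoters and in 0 of 12 H4 promoters, against 1.66% of all 27305 promoters. CCAAT was present in every H2A, H2B and H3 promoter and in 25% of the H4 promoters, against 33% of all. TATAAA was present in 73.3% of H2A, 66.7% of H2B, 70.0% of H3 and 58.3% of H4 promoters, against 11.1% of all. The H2A and H2B shares are not separate counts. In 10 pairs an H2A and an H2B gene start 194 to 248 bases apart on opposite strands. Their 250-base windows cover largely the same DNA, so 1 match can count in both classes. Counting matches on either strand, of the 5 H2B genes with a higher probe, 5 held TATAAA and 4 held the octamer. Of the other 13 these counts were 7 and 10. The promoters of the 5 held from 3 to 6 CCAAT matches and those of the other 13 from 1 to 4. H2BC6 and H2BC18 held 1 each. In H2BC6 the single TATAAA match began 189 bases before the start, whereas in H2BC5, H2BC8 and H2BC12 one began 28, 32 and 27 bases before it. In H2BC4 and H2BC14 the only match was on the opposite strand, 220 and 219 bases before the start. The H2A genes H2AC6 and H2AC14 start on that strand, 246 and 245 bases before H2BC4 and H2BC14. These 2 matches thus lie nearer to the H2A start than to the H2B start.

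Several H2B genes start back to back with an H2A gene, with little DNA between the starts, and such pairs can share promoter elements. By RefSeq starts at most 500 bases apart, 10 pairs had tested probes for both genes. A difference between both genes of a pair on the same array is not moved by the shift of that array to its 75th percentile, but it is moved by quantile normalization. The H2B gene had the higher change in 8 of the 10 pairs, and in 9 under quantile normalization. In the pair of H2BC8 and H2AC8 the H2B minus H2A deviation was -0.13, -0.07 and 0.19 in empty cells and 0.77, 1.48 and 1.38 in LOX-PP cells. H2BC4 and H2AC6 gave -0.14, 0.00 and 0.14 against 0.43, 1.54 and 1.03. In both pairs the difference was smallest on LOX-PP replicate 1, where H2A was itself high. Each gene of a pair was read by its brightest probe. A dimmer probe of H2AC6 gave -1.83, -1.91 and -1.79 in empty cells and 0.405, -2.09 and -0.83 in LOX-PP cells. Its change was 0.88 (adjusted p = 0.37). With that probe the H2BC4 and H2AC6 difference on LOX-PP replicate 1 would fall below the empty arrays, so the separation of this pair depends on the probe. H2BC14 and H2AC14 gave a mean difference of 0.90 ± 0.65 (SD, n = 3) on the LOX-PP arrays, and H2BC13 and H2AC13 gave 0.83 ± 0.24 (SD, n = 3), with no call for either gene of the latter pair. The pair of H2BC7 and H2AC7 went below 0, at -0.40 ± 0.50 (SD, n = 3), and its groups overlapped. These differences were not part of the fit over all probes and carry no test.

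In the H2A class, none of the 18 probes passed. The largest rise was that of H2AC1, which lies at the edge of the chromosome 6 cluster and gave -2.26, -2.35 and -2.09 in empty cells and -0.30, -1.67 and -1.50 in LOX-PP cells. The groups were apart, with LOX-PP replicate 1 far above the rest, and the change of 0.95 did not pass (adjusted p = 0.17). H2AC19 (0.65, adjusted p = 0.11), named after its values were seen, was the other H2A gene whose groups were apart. The lowest value was that of H2AC4 (-0.44, adjusted p = 0.52). The 3 genes with the brightest probes, H2AC14 (-0.035), H2AC15 (0.025) and H2AC17 (0.17), had adjusted p-values of 0.93, 0.87 and 0.66. H2AC15 gave 5.07, 5.04 and 5.36 in empty cells and 6.12, 4.44 and 5.36 in LOX-PP cells, which thus lay on both sides of the controls. For H2AC21 the spot on empty replicate 1 was an outlier, and its value (0.081) rests on the other 5 arrays.

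The H3 genes varied least among themselves. The 10 tested genes known to encode the same protein, all on chromosome 6 from H3C1 to H3C12, lay between -0.34 (H3C12, adjusted p = 0.68) and -0.067 (H3C3, adjusted p = 0.92). H3C4 gave 5.46, 5.64 and 5.73 in empty cells and 5.63, 5.06 and 5.88 in LOX-PP cells, and H3C2 gave 5.21, 5.26 and 5.41 against 5.86, 4.68 and 5.47. In both the groups overlapped, with LOX-PP replicate 2 lowest. The genes for the other H3 protein, both on chromosome 1, were higher in value, with H3C15 at 0.65 (adjusted p = 0.49) and H3C13 at 0.46 (adjusted p = 0.49). H3C15 gave 4.77, 4.78 and 5.10 against 6.85, 4.43 and 5.67, so its rise was on LOX-PP replicates 1 and 3. Without LOX-PP replicate 1 its change was 0.0093.

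The H4 genes encode the same protein in 13 of the 14 tested genes, and they ranged from -0.34 (H4C4, adjusted p = 0.71) to 0.83 (H4C16, adjusted p = 0.37), the latter alone on chromosome 12. H4C3 was among the brightest, with 5.95, 6.11 and 6.11 in empty cells and 7.47, 6.07 and 6.88 in LOX-PP cells. Replicates 1 and 3 of LOX-PP were high and replicate 2 was among the controls, and the change of 0.62 did not pass (adjusted p = 0.29). Under quantile normalization its change was 0.11 (adjusted p = 0.84). H4C13 and H4C5, also bright, gave 0.25 (adjusted p = 0.46) and 0.13 (adjusted p = 0.67), and a second, dimmer probe of H4C13 gave -0.25 (adjusted p = 0.88). The probes of H4C12 (0.20 and -0.19) and of the H3 gene H3C10 (-0.28 and 0.052) also differed in sign, with none past the threshold.

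Genes that encode the same protein did not share one change in H2B. H2BC4, H2BC6, H2BC7, H2BC8 and H2BC10 are known to encode one protein, and RefSeq lists them as synonyms of each other. Of these 5 genes, 2 were higher and 1 was lower, and their changes ran from -1.97 in H2BC6 to 1.36 in H2BC4, a range of 3.34. The 10 H3 genes above spanned 0.28, and the 13 H4 genes spanned 1.18. Among H2A genes, H2AC11, H2AC13, H2AC15, H2AC16 and H2AC17, likewise of one protein, lay between -0.42 and 0.17. The spans are not of like probes, since those of H2BC4, H2BC6 and H2BC8 were dimmer than those of the 10 H3 genes. A probe may also read RNA of other members. A test of the difference between these groups was not made.

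On chromosome 6, 48 core histone genes with a tested probe fell into 3 blocks. The first block held 28 of them, with H2BC4, H2BC5 and H2BC8 higher and H2BC6 lower. In gene order H2BC4 stood next to H2AC6 (0.36, adjusted p = 0.55, and 0.88, adjusted p = 0.37, on its dimmer probe). The nearest tested genes on either side of H2BC6 were H2BC5, which was higher, and H4C4 (-0.34, adjusted p = 0.71). An antisense gene, H2BC6-AS1, lies between H2BC5 and H2BC6 and had no tested probe. The second block held 5 genes, none called on its brightest probe, and the third held 15 with H2BC14 higher. Linker histones bind the DNA entering and leaving the nucleosome. Of the 6 tested in between, H1-1 (-8.47, adjusted p = 0.00011) and H1-5 (-1.84, adjusted p = 0.034) were lower. How far background sets the size of the H1-1 change was not tested. Of 14 other protein-coding genes tested there, PRSS16 (1.86, adjusted p = 0.045) and ZNF391 (1.58, adjusted p = 0.029) were higher.

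**Figure D4:**
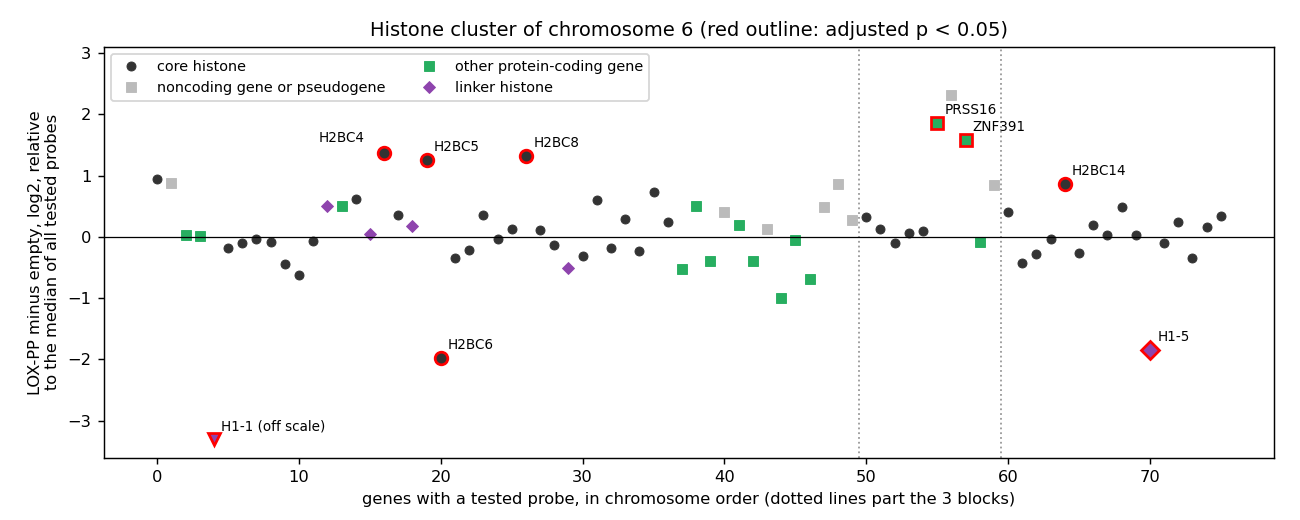
Genes with a tested probe are set out in their order along the histone cluster of chromosome 6, with the change in log2 units relative to all tested probes on the vertical axis and H1-1 (-8.47) drawn at the lower edge. Calls are outlined in red, and H2BC5 and H2BC6, with no tested gene between them, are drawn at 1.26 and -1.97.

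Genes that work with the core histones were also read from the same fit, each by its brightest probe. Of 11 tested histone variants encoded outside the clusters, which are made throughout the cell cycle, 0 passed in either direction, and their median was 0.066. Of 27 genes for the synthesis and processing of histone mRNA, 0 passed, with a median of -0.26 and 20 of them below the all-probe median. Of 23 tested histone chaperones 0 passed, with a median of -0.23, and of 24 S phase genes 0 passed, with a median of -0.31 and 19 below. On dimmer probes, and named for that after their values were seen, 2 chaperone genes had a probe that was lower, NASP (-1.73, adjusted p = 0.027, against 0.25 on its brightest probe) and RBBP4 (-1.60, adjusted p = 0.015, against -0.37). For comparison, the brightest 10% of all tested probes had a median of -0.04 and the next 10% one of -0.25. SLBP, the stem-loop binding protein, gave 4.86, 4.92 and 4.99 in empty cells and 3.71, 4.41 and 4.43 in LOX-PP cells. All LOX-PP arrays were below the controls and replicate 1 was lowest, but the change of -0.86 did not pass (adjusted p = 0.17). NPAT, a coactivator of histone genes, gave -0.43 (adjusted p = 0.51), and LSM11, a part of the U7 particle that cuts histone pre-mRNA, gave 1.22 (adjusted p = 0.094). These last 3 genes were picked for their roles after their values had been seen.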

How the data were processed

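Labelling, hybridisation and scanning followed Agilent's one-colour protocol. The intensity files deposited by the authors are the output of Agilent Feature Extraction 10.7, with raw and background-corrected signals and flags per spot. A table of log2 values was also deposited, and it differs from the values used here, once each probe is centred on its median, by at most 0.0054.

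Control and outlier spots were dropped, and corrected signals were put on the log2 scale and shifted by the 75th percentile of their array. Of 50599 gene probes, the 32609 that were well above background in 3 or more of the 6 arrays were fitted in limma 3.58.1 (R 4.3.3) without a block, with Benjamini-Hochberg adjustment over all of them and a threshold of 0.05. Probes were named through unversioned RefSeq accessions (28174 of 50599 probes). The number of arrays limits the precision. The steps were tested on simulated data with independent noise of equal spread in both groups. The histone values do not have such noise, so the simulation does not cover the shift of LOX-PP replicate 1. The members and the gene lists were chosen with earlier results of these data known. Values are given for probes past the threshold, for the 3 brightest genes, the largest rise and the largest fall of each class, and for genes whose probes differ in sign with 1 or more past the threshold. Promoter motifs were matched on both strands. Alternatives were other scalings, backgrounds, filters, floors, blocks and tests, each array left out, and averaging the probes of each gene.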

Additional observations from a re-analysis of the deposited data

How the results depend on the processing

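Against 5 higher and 1 lower probe, quantile normalization gave 7 higher and 2 lower, as did the stricter filter (well above background on all 6 arrays), and the slide as a block gave 3 higher and 1 lower. With no filter on dim probes (516 of 50599 probes called over the array) and with the methods' t-test (569 called) there were 0 in both directions. Deviations from the group mean correlated at 0.27, -0.39 and 0.23 for same-numbered arrays, and from -0.46 to 0.39 for the others. With 3 arrays a group these values depend on each other, so they cannot settle whether the replicate numbers pair the arrays. A replicate block gave 0 higher and 1 lower, with 893 calls over the array against 1848. Leaving out each array in turn gave from 0 to 3 higher and from 0 to 1 lower, with from 407 to 2067 calls over the array. H2BC6 stayed past the threshold in 12 of 16 alternatives, and H2BC4 and H2BC5 in 10. H2BC12 did so in 8, and H2BC8 and H2BC14 in 6. These 16 were not all separate checks. Since slide 2 held LOX-PP replicate 1 alone, the slide block and leaving out that array were the same fit. The deposited log2 values, and array medians used for scaling in place of the 75th percentile, nearly repeated the main fit for these genes. The adjusted p of H2BC6 ran from 0.0048 to 0.097. No named probe past the threshold changed direction. With no filter the medians of all members, H2A and H4 fell below 0 (-0.088, -0.080 and -0.082). There only the all-probe median moved, since dim probes were added to it, and the differences of the histone genes before it is taken off were the same. Over the fits without 1 array the medians lay between -0.20 and 0.55 over all members, -0.27 and 0.56 for H2A, 0.033 and 0.73 for H2B, -0.33 and 0.10 for H3, and -0.32 and 0.50 for H4, with the low end without LOX-PP replicate 1 and the high end without LOX-PP replicate 2. No accession named 2 members, so leaving out shared accessions gave no separate value. The fits without an array keep 2 arrays in one group. Apart from that move of the all-probe median, the cause of these changes was not tested.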

Other observations

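The probe of H2AC2P, an H2A pseudogene of the chromosome 6 cluster that the rule on symbols left out, gave a change of 0.88 (adjusted p = 0.19) and was well above background on 5 of 6 arrays.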
